A study of Mus musculus with 4 samples.

Results

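The genes described here encode the canonical poly(A) polymerases and the main poly(A)-binding proteins of the mouse. They are *Papola*, *Papolg*, *Pabpn1*, *Pabpn1l*, *Pabpc1*, *Pabpc1l* and *Pabpc4*. The 7 genes were listed by name, and all 7 were found by Ensembl identifier among the 21957 genes of the expression table. Their mRNA was measured by RNA-seq in oocytes of B6D2F1 (C57BL/6 x DBA) females aged 6 to 8 weeks that had been primed with PMSG. GV oocytes, stripped of cumulus cells and still holding the germinal vesicle, were taken at 0 h of culture without treatment. MII oocytes were cultured for 12 h without treatment and were kept if a polar body had been extruded, and TubA-10 and TubA-20 oocytes were cultured for 12 h with 10 or 20 μM tubastatin A (TubA), a small molecule made to inhibit the deacetylase HDAC6. All groups came from the same hybrid strain, and whether the untreated cultures held the solvent DMSO is not given in the sources used here. These doses follow the sample titles. In the treatment field TubA-10 is entered as 20 μM and TubA-20 as 11 μM. The methods describe each library as made from a pool of 100 oocytes, while the series title speaks of single cells, and which holds was not settled here. Each condition was 1 library, so no spread between replicates could be measured and no difference below has a test.

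A poly(A) tail is added to nearly every mRNA in the nucleus. The cleavage and polyadenylation complex finds the poly(A) signal, cuts the transcript, and poly(A) polymerase extends the end while the nuclear poly(A)-binding protein coats the growing tail. In the cytoplasm, proteins of the PABPC type bind the tail and connect it with the translation factor eIF4G at the cap. A fully grown oocyte hardly transcribes, so maturation runs on stored mRNAs whose tails are lengthened or shortened in the cytoplasm, and Pabpc1l (ePAB) is known as the PABPC of oocytes and early embryos.

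The 12 oocyte markers, such as zona pellucida genes, were at 197 FPKM or more in every library, but their levels moved. In TubA-20, *Zp2* (−1.36 from GV and −1.41 from MII on the log2 scale of FPKM + 1), *Zp3* (−1.33 and −1.21) and *Padi6* (−1.25 and −1.14) passed 2-fold downwards in both comparisons, as *Pabpc1l* did. *Zp1* (−1.08) did so from GV alone, and *Gdf9* (1.11) and *Oosp1* (1.20) passed 2-fold upwards from GV. From GV to MII *Bmp15* (1.08) passed 2-fold. FPKM are fragments counted on a gene, divided by transcript length and by all mapped fragments of the library. Markers of cumulus and granulosa cells summed to between 22.6 and 28.9 FPKM over 15 genes, with *Foxl2* at 0 in all 4 libraries. Of the 10 blood markers, *Cd68* was at 1.63 to 2.26 FPKM over the libraries. The haemoglobin genes were listed at 0, and the other blood markers did not exceed 0.0779 FPKM. Single cumulus and granulosa markers moved in both directions. *Inha* was at 7.50 FPKM in GV and 0.314 or less elsewhere, and *Hsd17b1* at 1.57 FPKM in GV and 0.183 in TubA-10, while from GV to TubA-20 *Cyp19a1* went from 6.14 to 10.3 FPKM, *Tnfaip6* from 0 to 1.57 and *Ptx3* from 0 to 1.19, and *Kitl* had 0.952 FPKM in GV against 2.75 in MII. The part of these markers in the results was not tested. The FPKM summed to between 568331 and 627340 per library. The depth of the libraries could not be read from the table, since at most 26.9% of the low values in a library shared a step with those of GV. The paper lists more reads for MII and TubA-10 than for GV and TubA-20. Intervals for single values could not be computed without read counts of each gene.

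The 3′ ends are shown because the tail that these proteins make and bind is added there, downstream of the hexamer AATAAA or its variant ATTAAA. In the principal GENCODE M21 transcript (GRCm38), the last 100 bases held such a hexamer in 5 of the 7 genes, against 78.8% of 19149 genes with a 3′ UTR of at least that length. The hexamer stands in capitals in the following 30-base windows, each read 5′ to 3′ on the coding strand of the 3′ UTR.
Pabpc1 (chr15:36595664-36595693, minus strand): aattcttgctttAATAAAaattccttaaac
Pabpc1l (chr2:164050505-164050534, plus strand): tttgctttatatATTAAAaaatgctgcaaa
Pabpc4 (chr4:123298794-123298823, plus strand): tcaaataaaggaAATAAAatctccataaat
Pabpn1 (chr14:54898105-54898134, plus strand): aaaaaaaaaagaATTAAAaaaaaaaaagaa
Pabpn1l (chr8:122619473-122619502, minus strand): agaatgtaaattATTAAActtgaatatatt

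*Pabpc1* and *Pabpc4* carry AATAAA, which the last 100 bases of 64.9% of these 19149 genes hold. *Pabpc1l*, *Pabpn1* and *Pabpn1l* carry ATTAAA, which 20.5% hold. In *Pabpc4* 2 copies of AATAAA overlap the window, and in *Pabpn1* the signal lies within a run of A, 53 bases before the end of the transcript. *Papola* and *Papolg* have neither hexamer in their last 100 bases. The *Papola* transcript used ends at position 105838807, before the annotated gene end at 105838944, and other annotated ends were not searched. The cytoplasmic polyadenylation elements TTTTAT and TTTTAAT, searched on the coding strand only, were in the last 100 bases of none of the 7 genes and of 17.9% of the 19149. Along its whole 3′ UTR of 1947 bases, *Papola* has 6 copies of TTTTAT and 1 of TTTTAAT, *Papolg* has 2 copies of TTTTAT in 1312 bases and *Pabpc1* has 1 in 439 bases. A match of letters is a description of the annotated sequence and not of a site in use.

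A gene was called higher or lower when the log2 ratio of FPKM + 1 passed 2-fold, that is 1 on the log2 scale. Each count is read against the share of all 21957 genes called the same way and against the share of expressed genes, meaning those that reached 5 FPKM in either library compared, as all 7 genes did. From GV to MII 0 of the 7 genes passed, where 3.05% of all genes were called higher and 8.34% lower, and 8.26% and 20.8% of expressed genes. From GV to TubA-10 again 0 of 7 passed, beside 0.742% higher and 5.6% lower of all genes, and 1.77% and 14.2% of expressed genes. From GV to TubA-20, *Papola* and *Pabpn1* were called higher and *Pabpc1l* lower. There the background was 7.61% higher and 11.7% lower of all genes, and 20.2% and 26.8% of expressed genes, so 2 higher and 1 lower of 7 lie near it. In TubA-10 against MII *Pabpc1* was called lower, where 0.128% of all genes and 0.206% of expressed genes were lower and 0.515% and 1.29% higher. In TubA-20 against MII *Pabpc1l* was called lower, where 2.44% of all genes and 6.09% of expressed genes were lower and 0.328% and 0.542% higher. Between the doses *Pabpn1* was called higher in TubA-20 and *Pabpc1l* lower, where 0.66% and 5.52% of all genes and 1.45% and 14.1% of expressed genes were called in these directions. The GV and MII libraries each enter several comparisons, which are therefore not independent.

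**Figure D1:**
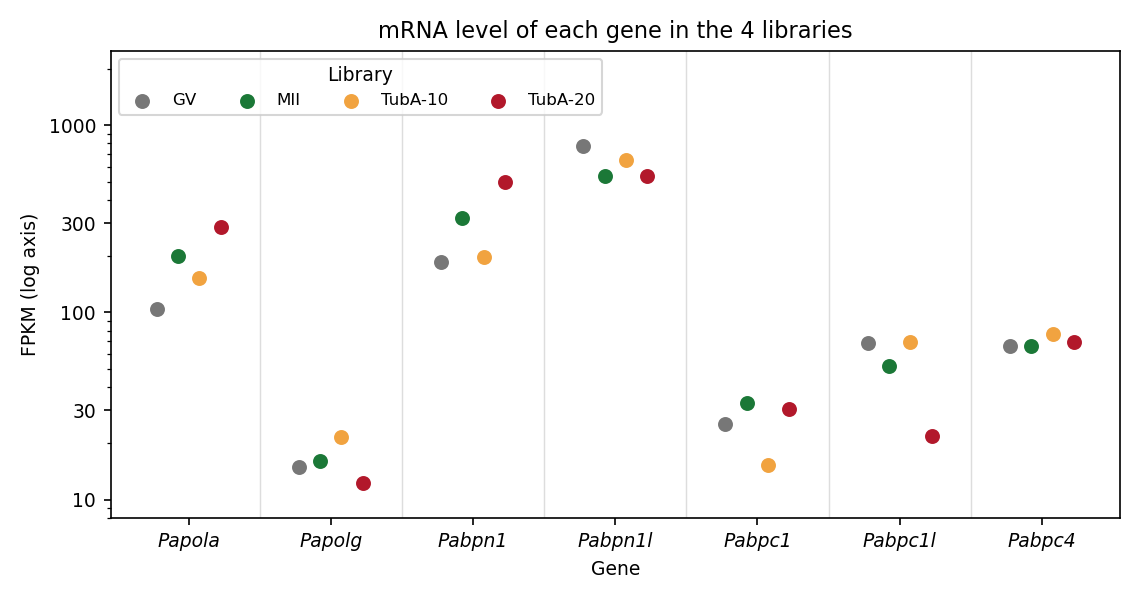
FPKM (log axis) of the 7 genes in the GV, MII, TubA-10 and TubA-20 libraries, with 1 point for each library and no error bars because each condition has 1 library. *Papola* and *Pabpn1* have their highest point in TubA-20, at 287 and 496 FPKM, and *Pabpc1l* has its lowest point there, at 21.8 FPKM.

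*Papola* (ENSMUSG00000021111.15) encodes the main nuclear poly(A) polymerase, the enzyme that extends the cut 3′ end. It is on chromosome 12 (105784694 to 105838944, plus strand). Its level was 105 FPKM in GV oocytes, 201 in MII oocytes, 152 with TubA-10 and 287 with TubA-20. GV was thus the lowest library and TubA-20 the highest, with TubA-10 between GV and MII. On the scale of log2 of FPKM + 1 the difference from GV came to 0.94 for MII oocytes, 0.54 with TubA-10 and 1.45 with TubA-20. Only 3.3% of the 7778 expressed genes rose as much from GV to TubA-20. The difference of MII from GV falls short of 2-fold as deposited and passes it with equal FPKM sums (1.07) or equal *Gapdh* (1.16). More transcripts and longer tails that oligo(dT) catches better cannot be told apart in these libraries, nor can RNA per oocyte and the number of oocytes of a kind in a pool.

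*Papolg* encodes a second nuclear poly(A) polymerase of similar build. It is on chromosome 11 (ENSMUSG00000020273.13, 23862646 to 23895253, minus strand), and 91 of its exonic bases overlap the antisense gene *Gm12061*. It was the lowest of the 7 genes in 3 of the 4 libraries, with 14.9 FPKM for GV, 16.1 for MII and 12.3 for TubA-20, while in TubA-10 its 21.6 FPKM lay above *Pabpc1*. TubA-10 was the highest and TubA-20 the lowest library of *Papolg*, the reverse of what *Papola* shows for these doses. The difference between the doses, TubA-20 against TubA-10, was −0.76 for *Papolg* and 0.91 for *Papola* on the log2 scale. Neither passed 2-fold as deposited, and with equal upper quartiles that of *Papola* did (1.04).

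*Pabpn1* encodes the nuclear poly(A)-binding protein, which holds the polymerase on the growing tail. It is on chromosome 14 (ENSMUSG00000022194.15, 54892500 to 54898169, plus strand). *Pabpn1* was at 185 FPKM in GV oocytes, 319 in MII oocytes, 197 with TubA-10 and 496 with TubA-20. GV and TubA-10 lay close together, and MII and TubA-20 were higher. The log2 difference from GV came to 0.78 for MII oocytes, 0.09 with TubA-10 and 1.42 with TubA-20. In TubA-20 against TubA-10 it was 1.33, and 0.203% of 7374 expressed genes had as large a rise between the doses. Against MII the log2 difference was −0.69 in TubA-10, where 0.782% of genes were as low, and 0.63 in TubA-20, where 5.43% were as high. With equal *Gapdh* the rise from GV to MII passed 2-fold (1.01), and with the median change set to 0 the small TubA-10 difference from GV turned to −0.07. A read-through gene, *Gm20521*, shares 651 exonic bases with *Pabpn1* on the same strand and was listed at 0.421 FPKM or less.

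*Pabpn1l*, a relative of *Pabpn1* that is expressed in oocytes and early embryos and is known for the clearance of maternal mRNA, was the most abundant of the 7 genes in every library. It is on chromosome 8 (ENSMUSG00000069867.3, 122619471 to 122622739, minus strand). Its level was 779 FPKM in GV oocytes, 537 in MII oocytes, 649.7 with TubA-10 and 538 with TubA-20. By rank it was gene 118 of all genes in GV oocytes, 159 in MII oocytes, 132 with TubA-10 and 191 with TubA-20. GV was the highest library, and MII and TubA-20 had nearly the same value. The log2 difference from GV came to −0.53 for MII oocytes, −0.26 with TubA-10 and −0.53 with TubA-20, none past 2-fold, and that of TubA-10 turned to 0.01 with equal *Gapdh*. Of TubA-20 against MII the difference was 0.00, and it lay between −0.16 and 0.10 over the scalings tried.

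*Pabpc1* encodes the general cytoplasmic poly(A)-binding protein of somatic cells. It is on chromosome 15 (ENSMUSG00000022283.14, 36595661 to 36609668, minus strand). It was at 25.3 FPKM in GV oocytes, 32.9 in MII oocytes, 15.3 with TubA-10 and 30.3 with TubA-20. TubA-10 was the lowest library, and the other libraries lay within 25.3 to 32.9 FPKM. The log2 difference of TubA-10 was −0.69 from GV and −1.06 from MII. Only 0.178% of 7292 expressed genes were as low in TubA-10 against MII, and the difference stayed between −1.11 and −1.02 over the pseudocounts, scalings and minimum values tried. TubA-20 differed from MII by −0.12 and from TubA-10 by 0.94, which reached 1.07 with equal upper quartiles. The annotation holds 4 other genes with at least 90% identity to the *Pabpc1* transcript over 100 bases or more, *Gm8276*, *Gm16580*, *Gm43973* and *Gm48059*, for which no value is used here. The value of *Pabpc1* is uncertain to the extent that reads were shared with them.

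*Pabpc1l* showed the largest fall among the 7 genes. It encodes ePAB, the cytoplasmic poly(A)-binding protein of oocytes, which is needed for oocyte maturation and female fertility in mice, and is on chromosome 2 (ENSMUSG00000054582.4, 164025450 to 164050538, plus strand). *Pabpc1l* was at 69.1 FPKM in GV oocytes, 51.9 in MII oocytes, 69.9 with TubA-10 and 21.8 with TubA-20. GV and TubA-10 had nearly the same level, MII was somewhat lower, and TubA-20 was below all other libraries. The GV level was 3.17 times, the TubA-10 level 3.21 times and the MII level 2.38 times that of TubA-20. On the log2 scale TubA-20 differed by −1.62 from GV, by −1.22 from MII and by −1.64 from TubA-10. As low a value was reached by 17.5% of expressed genes against GV, by 3.15% against MII and by 3.97% against TubA-10. All 3 differences stayed past 2-fold under each pseudocount and scaling, at −1.84 to −1.48, −1.37 to −1.13 and −1.83 to −1.51. No other annotated transcript had 90% identity with *Pabpc1l* over 100 bases.

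*Pabpc4* encodes a further cytoplasmic poly(A)-binding protein, first described in activated T cells. It is on chromosome 4 (ENSMUSG00000011257.19, 123262351 to 123298925, plus strand) and was the steadiest of the 7 genes. Its levels were 66.5 FPKM in GV oocytes, 66.2 in MII oocytes, 76.3 with TubA-10 and 69.7 with TubA-20, and the highest was 1.15 times the lowest. The log2 difference from GV came to −0.01 for MII oocytes, 0.20 with TubA-10 and 0.07 with TubA-20. Of these, the MII difference became positive under 3 of the 4 scalings, and the TubA-20 difference negative with the median change set to 0. *Pabpc4* has 15 annotated genes of at least 90% identity over 100 bases or more. Of these, *Gm10110* has a value, between 0.920 and 2.42 FPKM, so part of the *Pabpc4* level is uncertain.

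**Figure D2:**
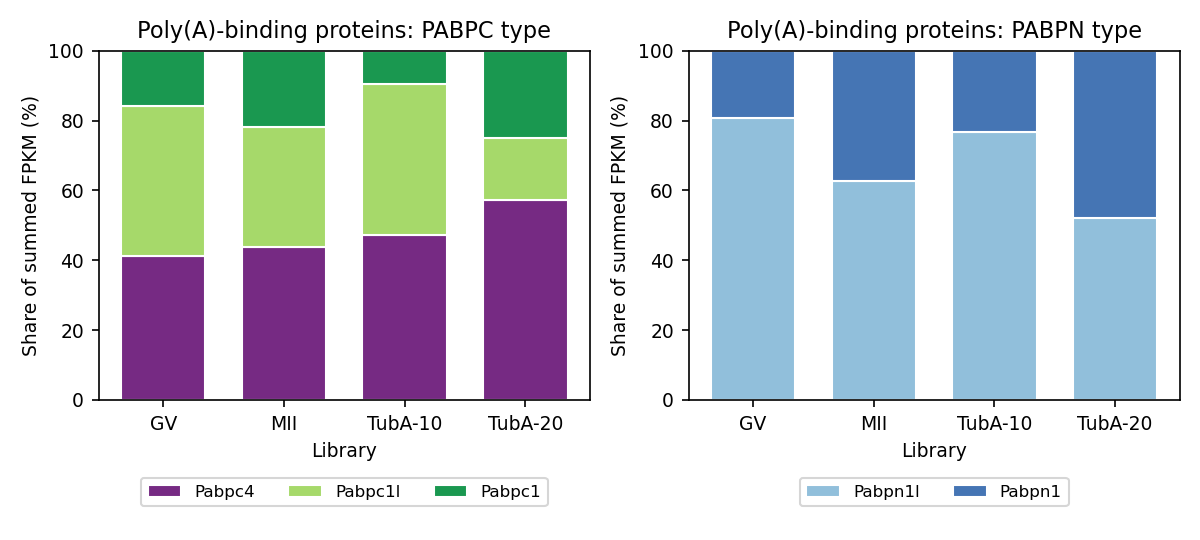
Share of each gene in the summed FPKM (%) of *Pabpc1*, *Pabpc1l* and *Pabpc4* (left) and of *Pabpn1* and *Pabpn1l* (right) in the GV, MII, TubA-10 and TubA-20 libraries, with 1 bar for each library. *Pabpc1l* makes up 43.0% of its bar in GV and 17.9% in TubA-20, and *Pabpn1* 19.2% and 48.0% of its own.

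Ratios between genes inside a library do not depend on how the libraries are scaled. Those with *Pabpc1*, and the shares of the PABPC genes, carry the uncertainty of *Pabpc1* and *Pabpc4* from near-identical genes. *Pabpc1l* exceeded *Pabpc1* by 2.73 times in GV, 1.57 times in MII and 4.56 times in TubA-10. In TubA-20 alone *Pabpc1l* was below *Pabpc1*, at a ratio of 0.718. Of the summed FPKM of the 3 cytoplasmic genes, *Pabpc1l* held 43.0% in GV oocytes, 34.3% in MII oocytes, 43.3% with TubA-10 and 17.9% with TubA-20. The share of *Pabpc4* was 41.3%, 43.8%, 47.2% and 57.2% in the same order, and that of *Pabpc1* was 15.7%, 21.8%, 9.49% and 24.9%. TubA-10 resembled GV in its *Pabpc1l* share and had the lowest *Pabpc1* share. The sum itself was 161 FPKM in GV oocytes, 151 in MII oocytes, 162 with TubA-10 and 122 with TubA-20.

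The balance of the PABPN genes also differed between the libraries. In TubA-10 *Pabpn1l* over *Pabpn1* was below its GV ratio, while *Pabpc1l* over *Pabpc1* was above its own. *Pabpn1l* exceeded *Pabpn1* by 4.20 times in GV, 3.29 times in TubA-10, 1.68 times in MII and 1.09 times in TubA-20. The sum of both genes lay between 847 and 1034 FPKM in all 4 libraries. *Papola* exceeded *Papolg* by 7.02 times in GV, 7.05 times in TubA-10, 12.5 times in MII and 23.2 times in TubA-20. For the PABPN and the polymerase ratios the libraries therefore fall in the order GV and TubA-10, MII, TubA-20. How far neighbours in these orders differ beyond the spread between libraries could not be measured.

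**Figure D3:**
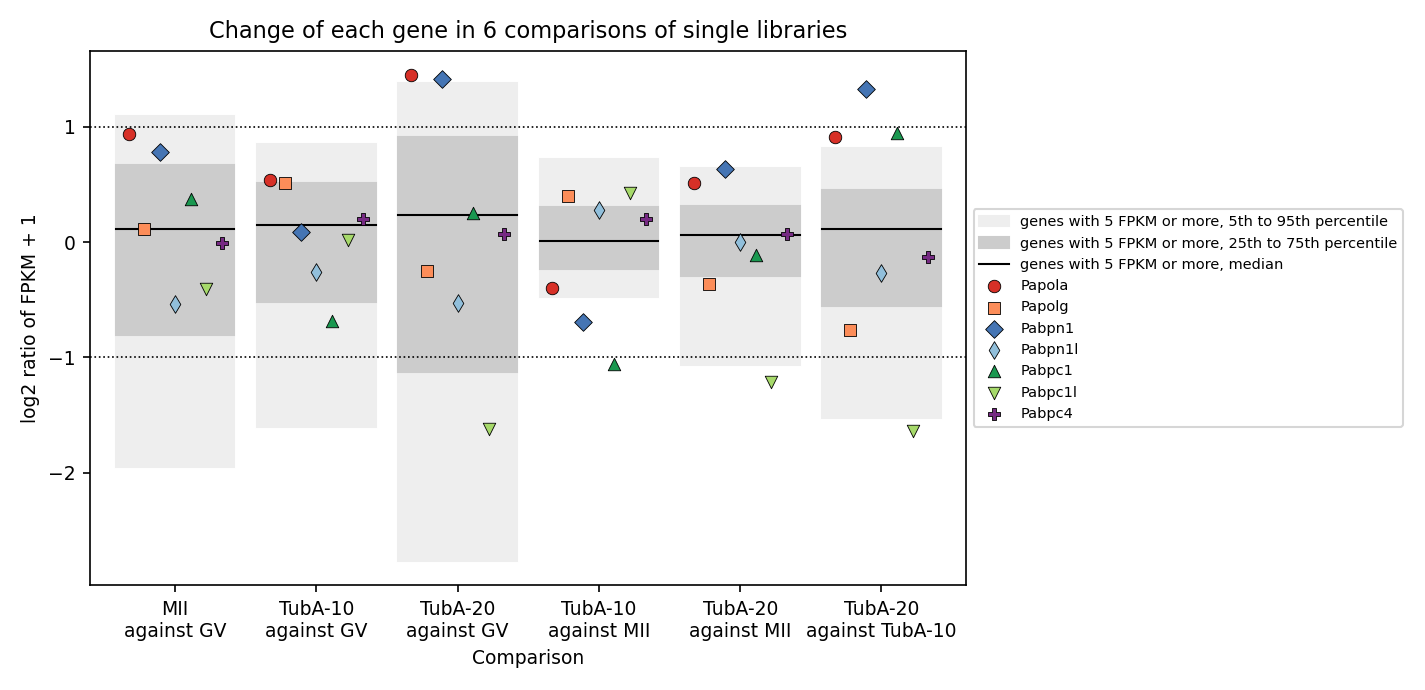
The log2 ratio of FPKM + 1 of the 7 genes in 6 comparisons of single libraries, drawn over the 5th to 95th and 25th to 75th percentiles and the median of expressed genes (5 FPKM or more in either library); dotted lines mark 2-fold. *Pabpc1l* lies below the lower line in each comparison with TubA-20, and *Pabpn1* lies above the upper line in TubA-20 against GV (1.42) and against TubA-10 (1.33).

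Set against the matured control, which differs from TubA-20 in meiotic stage too, the doses differed in which of the 7 genes stood apart. In TubA-10 against MII, *Pabpc1l* (0.42), *Papolg* (0.40), *Pabpn1l* (0.27) and *Pabpc4* (0.20) were above 0 on the log2 scale, and *Papola* (−0.40), *Pabpn1* (−0.69) and *Pabpc1* (−1.06) were below. In TubA-20 against MII, *Pabpn1* (0.63) and *Papola* (0.51) had the highest values and *Pabpc1l* (−1.22) and *Papolg* (−0.36) the lowest. The median of the 7 genes was 0.20 with TubA-10 and 0.00 with TubA-20, beside 0.01 and 0.06 over expressed genes. Against GV the medians of the 7 genes were 0.11 in MII oocytes, 0.09 with TubA-10 and 0.07 with TubA-20, and those of the expressed genes were 0.11, 0.15 and 0.23. Across 9193 genes at 1 FPKM or more throughout, the median gene differed from GV by 0.13 (MII), 0.14 (TubA-10) and 0.19 (TubA-20). Relative to this median gene, TubA-20 differed from GV by 1.26 for *Papola*, 1.23 for *Pabpn1* and −1.81 for *Pabpc1l*.

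**Figure D4:**
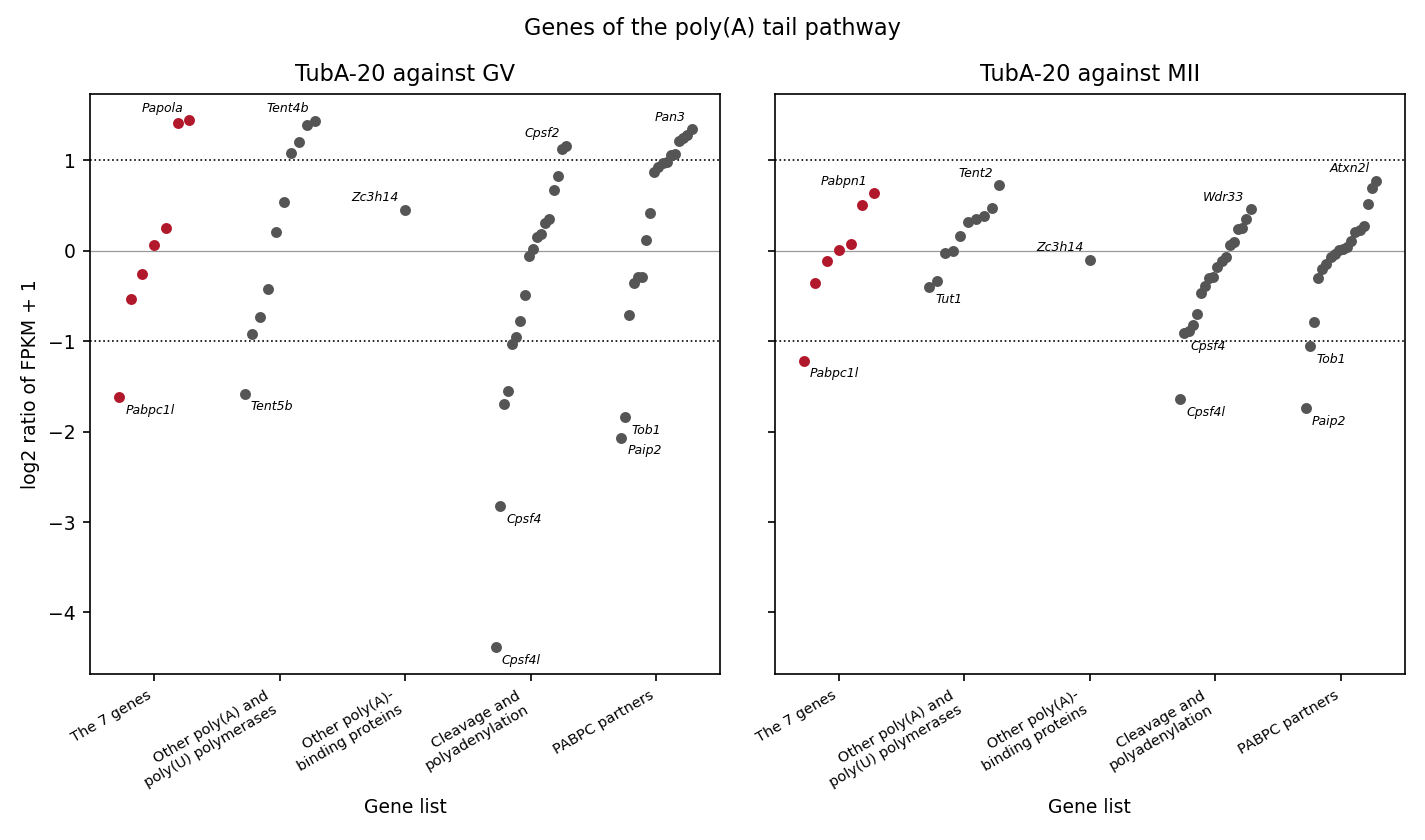
The log2 ratio of FPKM + 1 in TubA-20 against GV (left) and against MII (right) for the 7 genes (red) and for the listed pathway genes with at least 1 FPKM in a library (grey), with 1 point for each gene and dotted lines at 2-fold. *Cpsf4l* (−4.39) and *Cpsf4* (−2.83) have the lowest points against GV, and *Paip2* (−1.74) the lowest against MII.

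Outside the canonical polymerases, 12 genes for other poly(A) and poly(U) polymerases were followed. *Tent2* (GLD-2), the cytoplasmic polymerase best known for lengthening stored mRNAs, was at 33.2 FPKM in GV oocytes, 53.1 in MII oocytes, 41.9 with TubA-10 and 88.4 with TubA-20. *Tent4a* was at 69.3, 129, 101 and 161 FPKM and *Tent4b* at 36.9, 79.6, 53.6 and 102 FPKM in the same order. These 3 genes and *Papola* share the order GV, TubA-10, MII, TubA-20 from low to high. *Tut7* has it too, with nearly the same value in MII and TubA-20. The order is not particular to polymerases, since *Pan3*, *Atxn2* and the oocyte marker *Gdf9* also show it. Its share over all genes was not counted. From GV to TubA-20 *Tent2* (1.38), *Tent4a* (1.21), *Tent4b* (1.44) and *Tut7* (1.07) were called higher, which is 4 of 12, and *Tent5b* (−1.58), 1 of 12, was called lower, beside 20.2% and 26.8% of expressed genes (7.61% and 11.7% of all genes). With the median change set to 0, 2 of 12 were higher, and with a pseudocount of 0.1, 6 were higher and 2 lower. *Tut7* encodes a uridylating enzyme that marks short tails for decay. From GV to MII *Tent4b* (1.09) and *Tut7* (1.07) were called higher and *Tent5b* (−1.24) and *Tut4* (−1.09) lower, 2 of 12 each way, beside 8.26% and 20.8% of expressed genes (3.05% and 8.34% of all genes). With the median change set to 0 none was higher (0 of 12), and with equal *Gapdh* or a minimum of 5 FPKM 1 was lower. From GV to TubA-10, 0 of 12 were called higher and 1 lower, *Tut4* (−1.45). This stood beside 1.77% and 14.2% of expressed genes (0.742% and 5.6% of all genes). With a minimum of 5 FPKM 0 were lower there, and with a pseudocount of 0.1, 1 was higher. *Tut4* did not exceed 1.86 FPKM and *Tent5d* 1.42 FPKM in any library. *Tut1*, which acts on U6 RNA, was at 8.65, 6.67, 6.73 and 4.81 FPKM in the order used above. The exons of *Tut7* share 228 bases with *Gm49354* on the same strand, so its value is uncertain.

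*Tent5b* and *Tent5c*, cytoplasmic poly(A) polymerases of another family, were at 167 and 168 FPKM in GV, above *Papola*. They were below *Papola* in the other 3 libraries, where *Tent5b* was at 69.8 (MII), 128 (TubA-10) and 55.0 FPKM (TubA-20) and *Tent5c* at 127, 144 and 125 FPKM. *Mtpap*, the mitochondrial poly(A) polymerase, stayed between 35.5 and 49.6 FPKM. *Papolb*, the testis poly(A) polymerase, was listed at 0 in all 4 libraries. Of 5 further genes for poly(A)-binding proteins, *Pabpc2* and *Pabpc5* were listed at 0, *Pabpc4l* and *Pabpc6* did not exceed 0.390 FPKM, and *Zc3h14*, a nuclear zinc-finger protein, was at 37.2 FPKM in GV oocytes, 55.1 in MII oocytes, 45.7 with TubA-10 and 51.4 with TubA-20.

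The 19 genes of the cleavage and polyadenylation complex had a median log2 change of −0.10 from GV to MII, −0.17 to TubA-10 and −0.06 to TubA-20 over all 19. Over those of the 19 that were expressed the medians were 0.02, −0.15 and −0.02, beside 0.11, 0.15 and 0.23 over all expressed genes. The median over all 19 turned positive for TubA-20 with equal upper quartiles (0.09), and with equal *Gapdh* it was positive for MII (0.04), TubA-10 (0.03) and TubA-20 (0.01). From GV to TubA-20, 2 of 19 were called higher and 5 lower, beside 20.2% and 26.8% of expressed genes (7.61% and 11.7% of all genes). From GV to MII the counts were 1 and 3, beside 8.26% and 20.8% of expressed genes (3.05% and 8.34% of all genes). With the median change set to 0 no gene of the 19 was called higher in either comparison (0 and 0), and with a pseudocount of 0.1, 8 were called lower from GV to TubA-20. From GV to TubA-10, 0 of 19 were called higher and 3 lower, beside 1.77% and 14.2% of expressed genes (0.742% and 5.6% of all genes). With equal *Gapdh* 1 was higher there, and with a minimum of 5 FPKM 2 were lower. *Cpsf4*, a subunit that reads the poly(A) signal, was at 27.7 FPKM in GV oocytes, 6.60 in MII oocytes, 8.54 with TubA-10 and 3.04 with TubA-20. Its paralog *Cpsf4l* was at 1056, 157, 235 and 49.6 FPKM in the same order. *Wdr33*, the other subunit that reads the signal, was at 76.7 FPKM in GV oocytes, 122 in MII oocytes, 139 with TubA-10 and 169 with TubA-20 (1.13 from GV). *Cpsf2* was called higher in MII (1.07) and in TubA-20 (1.16), and these calls and that of *Wdr33* are lost with the median change set to 0. *Cpsf3*, the nuclease that cuts the transcript, was called lower from GV to TubA-20 (−1.70), as was *Nudt21* (−1.03), which helps choose the cleavage site and whose call is lost with equal upper quartiles or equal *Gapdh*. Against MII, *Cpsf4l* (−1.64) was the 1 gene of 19 called lower in TubA-20, and 0 were called higher, beside 6.09% and 0.542% of expressed genes, and with a pseudocount of 0.1, 4 were called lower. The largest rises there among genes of at least 10 FPKM, *Wdr33* (0.46), *Ssu72* (0.35) and *Cpsf6* (0.26), stayed within 2-fold, as did *Pcf11* from GV to MII (0.79) and *Cstf1* from GV to TubA-20 (0.35). In TubA-20 against MII the largest falls at that minimum after *Cpsf4l* were *Cpsf3* (−0.82) and *Nudt21* (−0.70). The median there was −0.30 over all 19 and −0.11 over those expressed, beside 0.06 over all expressed genes. *Cpsf3* shares 196 exonic bases with *Itgb1bp1* on the opposite strand, and the authors counted by strand.

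The 18 listed partners of PABPC had a median log2 change from GV of 0.48 in MII oocytes, 0.33 with TubA-10 and 0.90 with TubA-20. Over the 17 of them that were expressed it was 0.49, 0.37 and 0.93, beside 0.11, 0.15 and 0.23 over all expressed genes. From GV to TubA-20, 6 of 18 were called higher and 2 lower, beside 20.2% and 26.8% of expressed genes (7.61% and 11.7% of all genes). The 6 became 3 when the median change was 0 and 10 under equal upper quartiles. From GV to MII the counts were 5 and 0, beside 8.26% and 20.8% of expressed genes (3.05% and 8.34% of all genes). They became 2 and 1 with the median change set to 0. From GV to TubA-10, 0 of 18 were called higher and 0 lower, beside 1.77% and 14.2% of expressed genes (0.742% and 5.6% of all genes). With equal *Gapdh* 2 were higher there. *Eif4g1*, the scaffold that PABPC binds at the cap, was at 22.5 FPKM in GV oocytes, 49.8 in MII oocytes, 35.9 with TubA-10 and 48.4 with TubA-20. Among partners of at least 10 FPKM, *Larp4b* (1.25), *Atxn2* (1.28) and *Pan3* (1.34) had the largest rises from GV to TubA-20. *Pan3* belongs to the PAN2-PAN3 deadenylase, which PABPC recruits to tails. From GV to MII the largest rises at that minimum were those of *Larp4* (1.26), *Larp4b* (1.14) and *Eif4g1* (1.11). In TubA-20 against MII, 0 of 18 were called higher and 2 lower, beside 0.542% and 6.09% of expressed genes. With equal upper quartiles 1 was lower. The largest rises at that minimum were *Atxn2l* (0.78), *Pan3* (0.70) and *Tnrc6a* (0.52).

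The partners called lower in TubA-20, against GV and against MII, were *Paip2* and *Tob1*. *Paip2* encodes a repressor that displaces PABPC from the tail. *Paip2* was at 293 FPKM in GV oocytes, 234 in MII oocytes, 357 with TubA-10 and 69.2 with TubA-20. Its TubA-20 level was thus the lowest and its TubA-10 level the highest, and the log2 difference of TubA-20 was −2.07 from GV and −1.74 from MII. *Paip2b*, a second repressor of this kind, differed by −0.29 from GV and −0.79 from MII in TubA-20. *Tob1*, which links PABPC to a deadenylase, was called lower in TubA-20 against GV (−1.84) and against MII (−1.05). The call against MII, named after its values had been seen, is lost with equal upper quartiles. *Gspt1*, the release factor eRF3a, differed from GV by −0.92 in MII and by −0.71 in TubA-20, and its paralog *Gspt2* by −0.37 and −0.36.

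Among 6367 other genes with at least 10 FPKM in a library, those with the most similar changes from GV were found by the root mean square difference over the 3 log2 changes. Nearest to *Papola* were *Khdc4* (0.021), *Ube3a* (0.032) and *Pttg1* (0.032), the gene of securin, which ran from 2606 FPKM in GV to 7145 in TubA-20. *Pabpn1* was nearest to *Mtdh* (0.066), *Wtap* (0.081), a subunit of the m6A methyltransferase, and *Pan3* (0.090). *Pabpc1l* was nearest to *Cops7a* (0.072), *Fxyd1* (0.077) and *Dhrs3* (0.094). *Pabpn1l* was nearest to *Bysl* (0.031), *Utp14a* (0.034) and *Trak1* (0.034), and *Pabpc4* to *Gclm* (0.034), *Ndufaf2* (0.035) and *Cnpy4* (0.041). *Papolg* was nearest to *Ube2g1* (0.048), *Naa20* (0.066) and *Birc5* (0.079). The distances were largest for *Pabpc1*, with *Stoml2* at 0.16, *Usp48* at 0.22 and *Iws1* at 0.25. With 3 changes from a shared GV library such distances describe these libraries only.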

How the data were processed

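The authors deposited 1 table of FPKM values, made from strand-specific paired reads of oligo(dT)-selected RNA with cufflinks on mm10. The submitters' processing notes name STAR 2.5.0, Cufflinks and Cuffdiff 2.2.1. The FPKM carry the scaling of the authors for length and library, so no count test applies. The 21959 entries were matched to symbols by Ensembl identifier without version (165 had no match and kept their identifier), and entries sharing a symbol were added. Changes are log2 ratios of FPKM + 1, called past 2-fold, which understate changes of low genes. With 1 library per condition no test was run. The genes and lists were chosen with earlier results of these data known. Named list genes were the 3 largest rises and falls from GV to MII, GV to TubA-20 and MII to TubA-20 with at least 10 FPKM, and all other polymerase and poly(A)-binding genes of at least 1 FPKM. For each of the 7 genes the 3 nearest genes by their changes from GV were named. Marker genes were named after their values had been seen, as were genes at 0 or below the stated minimum. Principal transcripts were taken by APPRIS tag, then length, and near-identical copies were found with megablast. Alternatives were a pseudocount of 0.1 or 0.01, a minimum of 1 or 5 FPKM, 4 scalings, thresholds of 1.5-fold and 3-fold, and the highest entry of a symbol. The calling step was run on a copy of 1 library with known changes and assumed noise. That run checks the code and does not measure how reliable the calls are. Python 3.11.15, numpy 2.4.6, pandas 2.3.3 and matplotlib 3.10.9 were used.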

Additional observations from a re-analysis of the deposited data

How the results depend on the processing

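With 1 library per condition, no replicate could be left out. No paired analysis was possible because no comparison came from a test and the labels give no replicate numbers. Each of the 2-fold calls given for the 7 genes kept its direction and its side of 2-fold under both pseudocounts, both minimum values and all 4 scalings. Scaling added calls for higher genes, to 1 of 7 from GV to MII where FPKM sums were set equal, 2 where *Gapdh* was, and 3 between the doses with equal upper quartiles. A 1.5-fold threshold gave 2 higher from GV to MII, 1 lower from GV to TubA-10, 2 lower in TubA-10 against MII, 1 higher in TubA-20 against MII, and 3 higher and 2 lower between the doses. A 3-fold threshold left 0 higher from GV to TubA-20 and between the doses, and 0 lower in either dose against MII, while *Pabpc1l* stayed lower in TubA-20 against GV and TubA-10. No share of all genes past 1.5-fold or 3-fold is given here. The counts at these thresholds therefore describe only how the calls depend on the threshold. The median of the 7 genes lay near 0 and changed sign with the median change set to 0 (−0.026 for MII against GV, −0.069 for TubA-10 against GV, −0.15 for TubA-20 against GV, −0.080 for TubA-20 against MII), with equal FPKM sums (−0.14) or equal *Gapdh* (−0.16) for TubA-20 against MII, and with equal upper quartiles between the doses (0.0018). Equal *Gapdh* moved the median gene from 0.14 to 0.37 for TubA-10 against GV and from 0.13 to 0.32 for MII.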
